A study of Homo sapiens with 16 samples.

Results

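The RNA levels of 10 subunit genes of the GCN5 and PCAF acetyltransferase complexes were examined: KAT2A, KAT2B, TADA1, TADA2A, TADA2B, TADA3, SGF29, TAF5L, TAF6L and SUPT7L. They were chosen by name as subunits of these complexes, and each was found by its Ensembl identifier among the 62700 genes of the deposited table. All 10 averaged 10 normalized counts or more and were among the 14643 genes tested.

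GCN5 (KAT2A) and its paralog PCAF (KAT2B) transfer acetyl groups to lysines of histone H3, and either enzyme can sit in the SAGA or the ATAC coactivator complex. The enzyme works in a small module with a TADA2 protein, TADA3 and SGF29, and in SAGA this module is held by a core that includes TADA1, TAF5L, TAF6L and SUPT7L. GCN5 is the target of the inhibitor MB3, and SAGA supplies both histone acetylation and histone deubiquitination at active genes in myeloid and other cells.

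The cells were OCI-AML3, an established acute myeloid leukemia (AML) line, profiled by RNA-seq after 3 h of treatment. The 16 libraries comprised 4 from untreated cells and 3 from each of 4 treatments, namely ATRA (all-trans retinoic acid, an agonist of all retinoic acid receptors, 0.1 µM), AM80 (Am80 or tamibarotene, an agonist selective for RARA, 0.1 µM), and each of these with GSK-LSD1 and MB3. GSK-LSD1 (0.1 µM) inhibits the histone demethylase LSD1 (KDM1A), and MB3 was used at 100 µM. The doses and the time come from the methods of the study. Each library with the inhibitors held both of them and a retinoid, so the effects of GSK-LSD1 and MB3 cannot be told apart. All libraries came from 1 cell line, and nothing in the labels says whether the repeats were separate cultures, so p-values measure the spread between these libraries, which may be technical.

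A library held from 11963898 to 33789718 counted reads, and the members held from 140 reads (SGF29) to 3359 reads (TADA3) in a library. Of the myeloid markers, SPI1, CEBPA, CD33, LYZ and CSF3R had at least 979 reads in every library, whereas MPO had 19 to 80, CD68 had 46 to 107 and CEBPE had at most 8. Of 7 myeloid markers tested, 3 were called lower and 1 higher with ATRA and inhibitors against untreated cells, beside 30.0% and 30.2% of all genes. With Am80 and inhibitors 3 were lower and 0 higher, beside 26.6% and 28.0%. The list medians were 0.04 and 0.02 on the log2 scale. SPI1 and CEBPA were among those lower, at -0.59 and -0.66 beside ATRA and -0.42 and -0.44 beside Am80 (-0.08 and -0.11 beside ATRA with a spline on GC content taken out of each library). With that spline 1 marker was lower and 1 higher beside ATRA, and 1 lower and 2 higher beside Am80. The part of these markers in the results was not tested. The summed normalized counts of the whole list of myeloid markers were 24658 to 29618 in untreated cells and 22090 to 26288 across the treated groups. Of the genes listed as markers of other cell types, CD3D and MS4A1 had 0 reads in every library and 5 had at most 4 reads. PECAM1, though on that list, had 773 to 5358 reads in the libraries of this AML line. The summed level of the whole marker list was 1004 to 1196 normalized counts in untreated cells, 2544 to 2808 with a retinoid and 1689 to 2190 with the inhibitors, nearly all of it PECAM1, and its part in the results was not tested. AM80 replicate 2 stood apart before any test, as the deepest library and by its GC slope. Its values fell with the GC content of transcripts, with a slope of -0.129 on the log2 scale per 10% GC, while those of the other AM80 libraries rose (0.079 and 0.135). It was the lowest of its group for 6 members and the highest for the other 4. That trait was not particular to it, since ATRA replicate 3 was the lowest of its group for 8 members and the highest for 2. Values for Am80 are therefore also given without it where it moved them. In bulk samples, fewer cells with a transcript and less of that transcript per cell cannot be told apart.

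The level of each member was taken per kilobase of its annotated exons, so that genes of different length could be set side by side. In untreated cells TADA3, an adaptor in the module of the enzyme, stood at 488 ± 28.9 normalized counts per kilobase (SD, n = 4). KAT2A followed at 445 ± 29.2, and the libraries of these 2 genes overlapped. KAT2B, the other enzyme, was the lowest member at 43.3 ± 4.3 per kilobase. Of the 14293 genes with an annotated length, 88.8% lay below TADA3 or level with it and 37.1% below KAT2B. The core subunits TAF5L, TADA1 and SUPT7L came between them, at 193.3, 168.1 and 163.7 per kilobase, and TADA1 and SUPT7L did not differ beyond the range of their libraries. SGF29 (120.9), TADA2B (106.5) and TAF6L (98.5) formed a run in which each neighbour overlapped the next, and TADA2A (73.3) lay under them. Measured by the longest annotated transcript in place of all exons, SGF29 moved from the sixth to the fourth place, while TADA3, KAT2A and TAF5L stayed in the first places and TADA2A and KAT2B in the last.

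**Figure D1:**
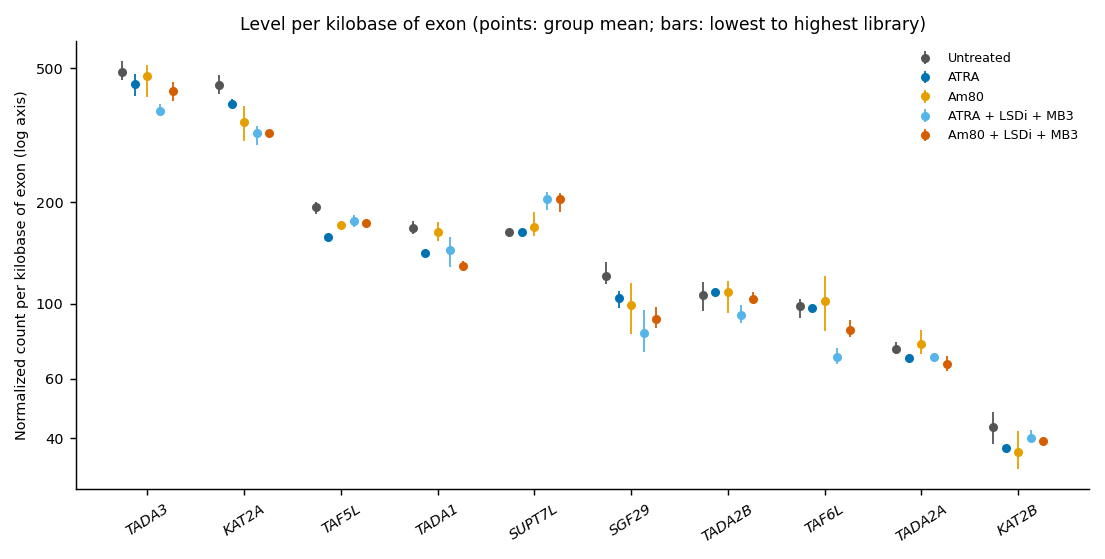
Normalized counts per kilobase of exon (log axis) for the 10 subunit genes, ordered by their level in untreated cells. Points are group means and bars run from the lowest to the highest library of 4 untreated or 3 treated libraries; TADA3 and KAT2A lie at the top in each of the 5 groups and KAT2B at the bottom.

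The ratio of the paralogs was also taken within each library, per kilobase. KAT2A exceeded KAT2B 10.4-fold in untreated cells (SD 1.5, range 8.77 to 12.4), 10.4-fold with ATRA (SD 0.24) and 9.66-fold with Am80 (SD 2.11). With the inhibitors the ratio was 7.98 (SD 0.44) beside ATRA and 8.16 (SD 0.15) beside Am80. The libraries with ATRA and inhibitors thus lay between 7.59 and 8.45, under the 10.2 to 10.7 of the libraries with ATRA alone, whereas the 8.03 to 8.33 of the Am80 combination lay inside the 7.22 to 10.96 of Am80 alone. KAT2A has the higher GC content of the pair, and with a spline on GC content taken out of each library the log2 changes on adding the inhibitors to ATRA were 0.03 for KAT2A and -0.05 for KAT2B. The ratio of TADA2A, the form found in ATAC, to TADA2B, the form found in SAGA, was 0.69 in untreated cells and between 0.64 and 0.75 in the treated groups, and the range of each treated group overlapped that of the untreated libraries.

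The first question was whether a retinoid alone changed these transcripts. Differences were tested with limma on log2(normalized count + 1) with Benjamini-Hochberg adjustment over all genes tested, and a gene was called at an adjusted p under 0.05. With ATRA, 2 of the 10 members were called, both lower (TADA1 and TAF5L), where 24.6% of all genes tested were called, 12.1% lower and 12.5% higher. With Am80, 2 members were called, again both lower (KAT2A and TAF5L), where 28.8% of all genes were called, 13.4% lower and 15.4% higher. The median change of the members was -0.15 with ATRA and -0.04 with Am80, beside medians of -0.02 and -0.01 over all genes. These comparisons share the untreated libraries.

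The next question was what cells given a retinoid together with both inhibitors held. Against untreated cells, 6 of 10 members were called with ATRA and inhibitors, 5 lower and 1 higher, where 60.2% of all genes were called (30.0% lower and 30.2% higher). With Am80 and inhibitors 6 members were called, 5 lower and 1 higher, where 54.7% of all genes were called (26.6% lower and 28.0% higher). KAT2A, TADA1, TADA3 and SGF29 were called lower in both comparisons, TAF6L passed beside ATRA (adjusted p = 0.0584 beside Am80) and TAF5L beside Am80 (adjusted p = 0.0513 beside ATRA), and SUPT7L was called higher in both. The median change of the members was -0.21 and -0.17, beside a median of 0.00 over all genes in each. Against the same retinoid without inhibitors, 7 members were called with ATRA (5 lower and 2 higher), where 49.3% of all genes were called, 24.4% lower and 24.9% higher. With Am80 the corresponding count was 2 (1 lower and 1 higher), where 39.5% of all genes were called, 19.5% lower and 19.9% higher. Without AM80 replicate 2 that count rose to 5. Of the members whose Am80 values are not given below without that library, none was called then by limma: against untreated cells TADA1 was at -0.09, TADA2A at -0.02, TADA2B at 0.13, TADA3 at 0.06, TAF6L at 0.17 and SUPT7L at -0.03, and on adding the inhibitors KAT2B was at 0.22, TADA2B at -0.16 and TAF5L at 0.02. The balance of higher and lower calls rested on the scaling: with size factors 50.1% to 51.3% of the called genes were higher in these 4 comparisons, and with libraries scaled to total reads 29.3% to 35% were, with 9, 9, 5 and 5 members called lower.

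With size factors, 0 of 10 members passed limma's adjusted threshold together with a 1.5-fold change in these 6 comparisons, where 9.45% and 10.2% of all genes did with ATRA and Am80, 29.1% and 26.0% with the combinations against untreated cells, and 19.5% and 15.7% against the same retinoid. That count of 0 rested on the scaling. With quantile normalization KAT2A passed both limits against untreated cells, at -0.59 beside ATRA and -0.61 beside Am80. With libraries scaled to total reads KAT2A (-0.62 and -0.65) and SGF29 (-0.71 and -0.61) passed beside both retinoids, and TAF6L passed beside ATRA (-0.65, and -0.63 against ATRA alone). edgeR and DESeq2 were not run with that fold limit. At an unadjusted p under 0.05, 3 and 4 members passed with the retinoids alone, 8 and 7 with the inhibitors against untreated cells, and 7 and 4 against the same retinoid. With size factors SGF29 with ATRA and inhibitors came nearest to the limit, at 32.5% under its untreated level.

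**Figure D2:**
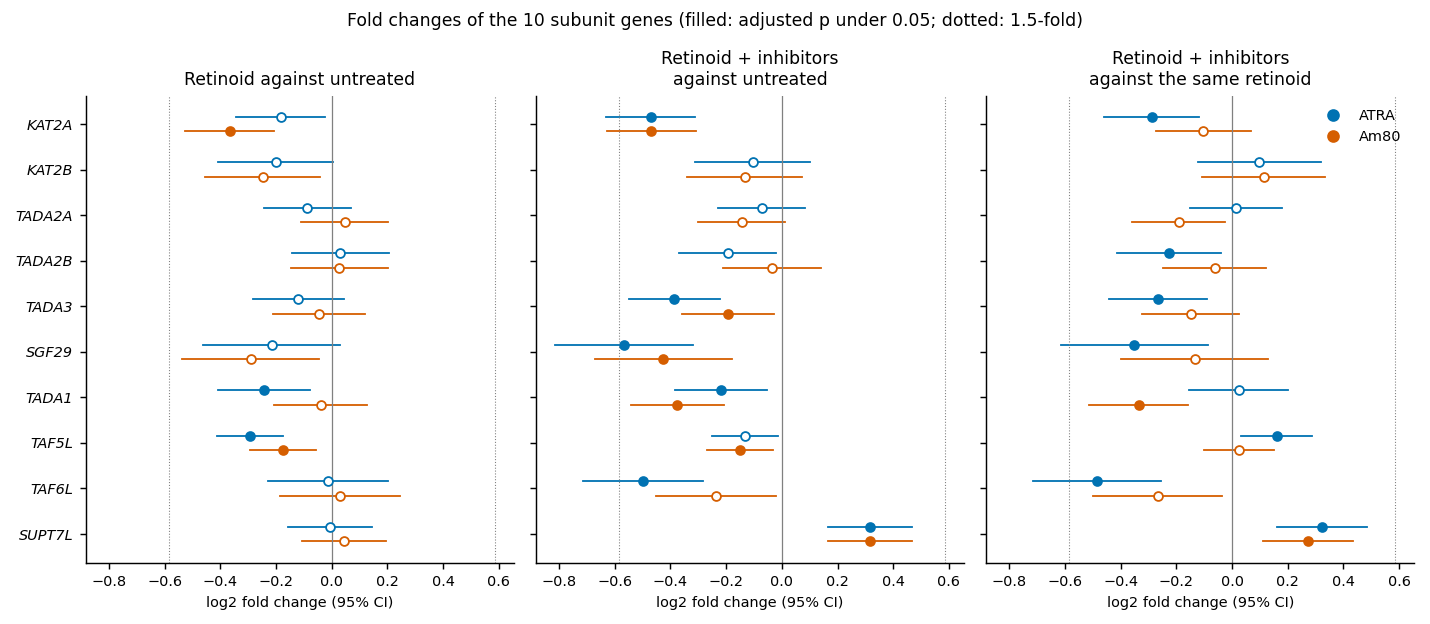
Log2 fold change of the 10 subunit genes with 95% confidence interval in 6 comparisons from limma; blue is ATRA, orange is Am80, filled points have an adjusted p under 0.05 and dotted lines mark 1.5-fold. KAT2A lies to the left of 0 in all 6 comparisons and the intervals of SUPT7L lie to the right of 0 in the 4 comparisons in which the inhibitors were added.

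KAT2A (ENSG00000108773.11, minus strand of chr17:42113108-42121358, GRCh38 in GENCODE 29) encodes the GCN5 enzyme itself. It had 1583, 1583, 1750 and 1793 normalized counts in the untreated libraries, 1466, 1527 and 1431 with ATRA and 1319, 1143 and 1453 with Am80. Every library with a retinoid lay below every untreated library. The log2 change with Am80 was -0.37 ± 0.08 (SE; adjusted p = 0.000983), while that with ATRA was -0.18 ± 0.08 and missed the threshold (adjusted p = 0.0894), or passed it when AM80 replicate 2 was left out of the fit (adjusted p = 0.04) and with GC content removed (-0.18, adjusted p = 0.0141). AM80 replicate 2 held the lowest KAT2A value of its group, and without it the change with Am80 was -0.27 (adjusted p = 0.00892).

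With the inhibitors KAT2A had 1265, 1115 and 1247 normalized counts beside ATRA and 1180, 1233 and 1217 beside Am80. All 6 of these libraries lay below all 3 libraries with ATRA alone, and they overlapped those with Am80 alone. Against untreated cells KAT2A was at 72.1% of its level in both combinations, with log2 changes of -0.47 ± 0.08 (adjusted p = 2.46e-05) and -0.47 ± 0.08 (adjusted p = 2.90e-05). Against ATRA alone the change was -0.29 ± 0.08 (adjusted p = 0.00665), and against Am80 alone it was -0.10 ± 0.08 (adjusted p = 0.339) or, without AM80 replicate 2, -0.19 (adjusted p = 0.04998). After a spline on GC content was taken out of each library, KAT2A stayed called against untreated cells (-0.16 and -0.31), but its difference from ATRA alone was 0.03 (adjusted p = 0.755).

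KAT2B (ENSG00000114166.8, plus strand of chr3:20040023-20154404) encodes the PCAF enzyme and had 216 to 270 normalized counts in untreated cells. It had 215, 214 and 205 with ATRA and 183, 237 and 198 with Am80, and with the inhibitors 239, 220 and 221 beside ATRA and 217, 221 and 227 beside Am80. All 3 ATRA libraries lay just under the lowest untreated library, and the other groups overlapped the untreated cells. With size factors no change of KAT2B was called by limma in the 6 comparisons (the adjusted p was 0.0669 to 0.465), with log2 values of -0.20 and -0.25 for the retinoids, -0.10 and -0.13 for the combinations against untreated cells, and 0.10 and 0.11 for adding the inhibitors. The change with Am80 passed when AM80 replicate 2 was left out (-0.35, adjusted p = 0.0138) or when Untreated replicate 4 was (-0.30, adjusted p = 0.0216). KAT2B with GC content removed was called lower in 3 of the 6, with Am80 (-0.27, adjusted p = 0.0162) and in both combinations against untreated cells (-0.25, adjusted p = 0.0137, beside ATRA and -0.205, adjusted p = 0.0421, beside Am80). Scaling to total reads called the same 3 (-0.31, -0.25 and -0.32). The counts of KAT2B were low, at 161 to 457 reads per library.

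**Figure D3:**
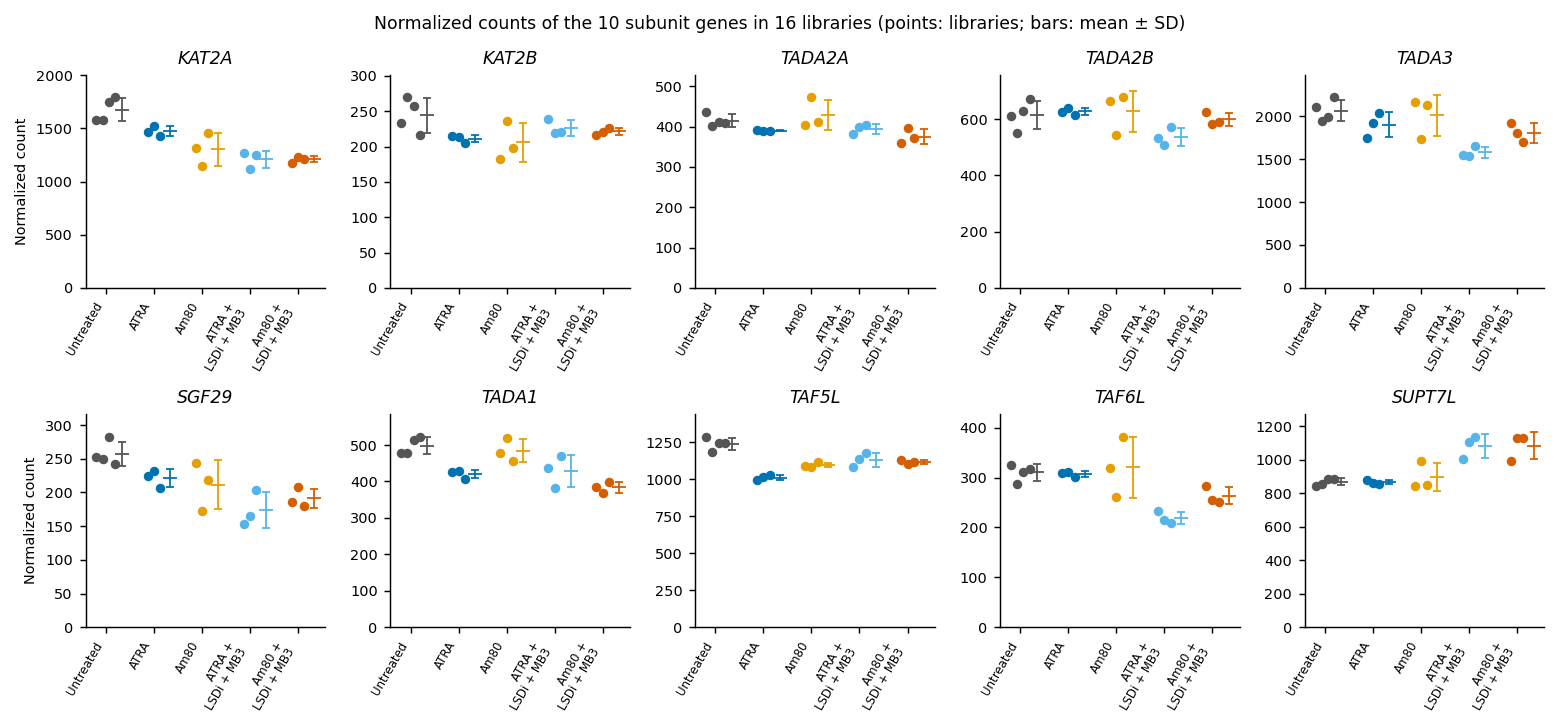
Normalized counts of each subunit gene in every library; points are libraries, and the bar beside each group is the mean ± SD (4 untreated libraries, 3 in each other group). KAT2A, TADA1, TADA3, SGF29, TAF5L and TAF6L lie lower with the inhibitors than in untreated cells, and SUPT7L lies between 991 and 1139 with the inhibitors, above the 845 to 888 of untreated cells.

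Of the partners in the enzyme's module, SGF29, whose Tudor domains read methylated histone H3, showed the largest change from untreated cells. It had 252, 249, 283 and 243 normalized counts in untreated cells, 153, 165 and 203 with ATRA and inhibitors, and 185, 208 and 180 with Am80 and inhibitors. All 6 libraries with inhibitors lay below all 4 untreated libraries. The log2 changes against untreated cells were -0.57 ± 0.12 (adjusted p = 0.000342) and -0.43 ± 0.12 (adjusted p = 0.00455), or -0.30 and -0.29 with GC content removed, both still called. The retinoids alone gave 206 to 232 with ATRA and 172 to 244 with Am80, and neither was called (adjusted p = 0.2008 and 0.071), though Am80 was without AM80 replicate 1 (-0.40, adjusted p = 0.027). Without AM80 replicate 2 the change with Am80 was -0.15 (adjusted p = 0.398), and with total reads as the scale it was -0.35 (adjusted p = 0.0283). Adding the inhibitors to ATRA lowered SGF29 by -0.35 ± 0.13 (adjusted p = 0.0262), a call that was lost without replicate 1 or 2 of either group (adjusted p = 0.0672 to 0.127) and when GC content was removed (-0.08). It was also lost with quantile normalization (-0.21, adjusted p = 0.173) and without a filter on low values (adjusted p = 0.0503). With Am80 the difference was -0.13 ± 0.13 (adjusted p = 0.424), or -0.27 without AM80 replicate 2 (adjusted p = 0.0822).

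TADA3, the adaptor shared by SAGA and ATAC, had 2107, 1947, 1992 and 2219 normalized counts in untreated cells, and 1751 to 2033 with ATRA and 1739 to 2162 with Am80. With ATRA and inhibitors it had 1545, 1541 and 1653, below every other library of the study. With Am80 and inhibitors it had 1922, 1801 and 1696, below every untreated library. The changes against untreated cells were -0.39 ± 0.08 (adjusted p = 0.00028; -0.20 with GC content removed) and -0.19 ± 0.08 (adjusted p = 0.0426), and the second of these was lost under DESeq2 (adjusted p = 0.0593), with GC content removed (-0.10) and when any of 7 libraries was left out (adjusted p up to 0.1804). Adding the inhibitors to ATRA gave -0.27 ± 0.08 (adjusted p = 0.0129; 0.0703 without ATRA replicate 3, and -0.06 with GC content removed), and adding them to Am80 gave -0.15 ± 0.08 (adjusted p = 0.1698) with AM80 replicate 2 and -0.25 (adjusted p = 0.0144) without it. Quantile normalization and scaling to total reads made both changes beside Am80 larger, and all were called. They were -0.35 and -0.38 against untreated cells, and -0.25 and -0.27 against Am80 alone. Exons of TADA3 overlap those of OGG1 (356 bp) and ARPC4 (479 bp) on the other strand. OGG1, a DNA glycosylase, fell in all 6 comparisons, by -0.37 and -0.39 on adding the inhibitors, and no change of ARPC4 was called. Since the strand setting of the counting is not given in the sources used here, the reads of such pairs could not be separated.

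TADA2A and TADA2B are alternative partners of the enzyme. TADA2A had 401 to 436 normalized counts in untreated cells and 358 to 472 in treated libraries, and with size factors it was not called by limma in any of the 6 comparisons (adjusted p = 0.0626 to 0.897). It was called lower in 3 of them with GC content removed, in the combinations against untreated cells (-0.23, adjusted p = 0.00298, and -0.22, adjusted p = 0.00386) and on adding the inhibitors to Am80 (-0.24, adjusted p = 0.00479). Scaling to total reads called the same 3, and edgeR called the last of them (-0.22, adjusted p = 0.0297). With size factors that difference was -0.19, or -0.12 without AM80 replicate 2 (adjusted p = 0.242). TADA2B had 550 to 673 in untreated cells, 616 to 640 with ATRA and 545 to 677 with Am80. It had 532, 508 and 572 with ATRA and inhibitors, where 2 of 3 libraries lay below all untreated ones (-0.19 ± 0.08, adjusted p = 0.0513, or 0.0188 without Untreated replicate 2), and 583 to 625 with Am80 and inhibitors. Against ATRA alone TADA2B was lower by -0.23 ± 0.09 (adjusted p = 0.0421), and this call was lost under DESeq2 (adjusted p = 0.0605), with GC content removed (adjusted p = 0.22) and when any of 7 libraries was left out (adjusted p up to 0.149).

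Of the SAGA core, TAF5L, a WD40 protein that takes the place TAF5 has in TFIID, was called lower with both retinoids. It had 1287, 1184, 1243 and 1243 normalized counts in untreated cells. The ATRA libraries held 992, 1014 and 1028 and the Am80 libraries 1092, 1084 and 1115, and none of these reached the lowest untreated value. The log2 changes were -0.29 ± 0.06 (adjusted p = 0.000559) and -0.18 ± 0.06 (adjusted p = 0.0247), and the second was lost when the untreated and Am80 libraries were fitted alone (adjusted p = 0.124) and without Untreated replicate 1 (0.074), AM80 replicate 1 (0.0744) or AM80 replicate 2 (0.057). With the inhibitors TAF5L had 1081 to 1174 beside ATRA and 1101 to 1131 beside Am80, all below the untreated libraries. The change beside Am80 was called (-0.15 ± 0.06, adjusted p = 0.0309), a call lost without any 1 of 5 libraries (adjusted p up to 0.0937). The change beside ATRA was -0.13 ± 0.06 and just missed the threshold (adjusted p = 0.0513), but it was called by edgeR (adjusted p = 0.0453), with quantile normalization (-0.24, adjusted p = 0.00158), with total reads as the scale (-0.28, adjusted p = 0.000285) and with GC content removed (-0.36, adjusted p = 4.62e-05). TAF5L was higher with ATRA and inhibitors than with ATRA alone, by 0.16 ± 0.06 (adjusted p = 0.0346), but the call was lost without any 1 of 5 libraries (adjusted p up to 0.129), and with GC content removed the difference was -0.08 (adjusted p = 0.337). That call was also lost with quantile normalization (0.07, adjusted p = 0.4004) and with total reads as the scale (0.01, adjusted p = 0.8696).

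TADA1, an adaptor of the core, had 477, 479, 513 and 523 normalized counts in untreated cells and 425, 429 and 408 with ATRA. No ATRA library reached the lowest untreated one, and the change was -0.24 ± 0.08 (adjusted p = 0.0295), which was lost when any of the 3 ATRA libraries or Untreated replicate 3 or 4 was left out (adjusted p = 0.0557 to 0.106). With Am80 it had 479, 519 and 456, within or near the untreated range (-0.04). With Am80 and inhibitors it had 384, 370 and 398, below all untreated and all Am80 libraries. That difference was -0.37 ± 0.08 against untreated cells (adjusted p = 0.00046) and -0.33 ± 0.08 against Am80 alone (adjusted p = 0.00369), and it also passed without AM80 replicate 2 (-0.28, adjusted p = 0.016). With ATRA and inhibitors the libraries spread from 381 to 469, the change from untreated cells was -0.22 ± 0.08 (adjusted p = 0.0225; 0.172 without replicate 2 of that combination), and the change from ATRA alone was 0.02 ± 0.08. The changes from untreated cells were larger with GC content removed, at -0.54 (adjusted p = 1.22e-05) beside ATRA and -0.58 (adjusted p = 5.35e-06) beside Am80, and that from ATRA alone was -0.31 (adjusted p = 0.00745).

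TAF6L, the SAGA counterpart of the histone-fold protein TAF6, had 325, 286, 311 and 318 normalized counts in untreated cells, 300 to 311 with ATRA and 261 to 382 with Am80. With ATRA and inhibitors it had 233, 215 and 209, below every other library. The changes were -0.50 ± 0.10 against untreated cells (adjusted p = 0.00032) and -0.48 ± 0.11 against ATRA alone (adjusted p = 0.00119). With GC content removed they were -0.03 (adjusted p = 0.763) and -0.04 (adjusted p = 0.668). With Am80 and inhibitors it had 251 to 283 (-0.24 ± 0.10 against untreated cells, adjusted p = 0.0584, or 0.0223 without AM80 replicate 2), and the difference from Am80 alone was -0.27 ± 0.11 (adjusted p = 0.0595) or, without AM80 replicate 2, -0.41 (adjusted p = 0.00314). With GC content removed these were 0.02 against untreated cells (adjusted p = 0.791) and -0.13 against Am80 alone (adjusted p = 0.1702). TMEM223, which shares 79 bp of exon with TAF6L on the other strand, also fell on adding the inhibitors, by -0.48 and -0.60.

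SUPT7L, a histone-fold subunit of the core, moved the other way. It had 845, 856, 888 and 887 normalized counts in untreated cells and 859 to 880 with ATRA, and 847, 994 and 852 with Am80. With the inhibitors it had 1006, 1109 and 1139 beside ATRA and 991, 1131 and 1132 beside Am80. All 6 lay above all untreated and ATRA libraries, whereas the 994 of AM80 replicate 2 lay above the lowest of the Am80 combination. Adding the inhibitors raised it by 0.32 ± 0.08 with ATRA (adjusted p = 0.00184) and by 0.27 ± 0.08 with Am80 (adjusted p = 0.00785), or by 0.35 without AM80 replicate 2, and both calls held with GC content removed (0.16 and 0.22). When libraries were scaled to total reads the values were 0.18 and 0.15, with 0.17 and 0.13 against untreated cells, and none of the 4 was called. Exons of SUPT7L overlap GPN1 (697 bp) and SLC4A1AP (370 bp) on the other strand, and both of these rose on adding the inhibitors, GPN1 by 0.51 and 0.43 and SLC4A1AP by 0.39 and 0.30. The reads of SUPT7L could not be separated from those of the overlapping exons.

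The changes moved with the base composition of the transcripts, and its part in them was not tested. GC content was that of the longest annotated transcript of each gene. It was 37.4% for TADA1, 41.5% to 44.3% for TAF5L, SUPT7L, TADA2A and KAT2B, and 52.8% to 64.0% for TADA2B, TADA3, SGF29, KAT2A and TAF6L. In the comparison of ATRA and inhibitors with ATRA alone, the 5 members called lower were the 5 of high GC content. Over all genes with a known GC content, the median change in that comparison was 0.23 for genes under 45% GC and -0.35 for genes over 55%, and Pearson's r between change and GC was -0.48 across 14293 genes, which are not independent replicates and share these libraries. For Am80 the same r was -0.16. Library slopes were 0.049 to 0.186 per 10% GC in untreated cells, -0.175 to -0.215 with ATRA and inhibitors and -0.032 to -0.094 with Am80 and inhibitors. With a GC spline removed from each library, 2 members rather than 7 were called against ATRA alone, TADA1 lower (-0.31) and SUPT7L higher (0.16), and 3 were called against Am80 alone.

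**Figure D4:**
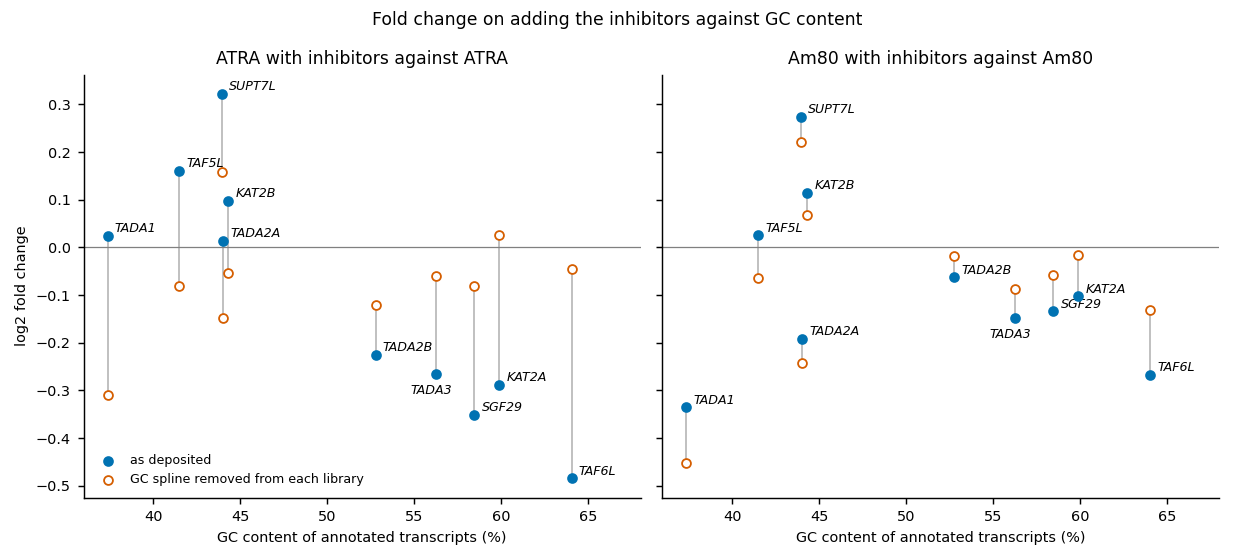
Log2 fold change on adding the inhibitors to ATRA (left) or Am80 (right) against the GC content of each gene's longest annotated transcript. Filled points are the values from the deposited counts, open points those after a GC spline was removed from each library, and grey lines join the points of a gene. Beside ATRA, TAF6L at 64.0% GC moves from -0.48 to -0.04 and TADA1 at 37.4% from 0.02 to -0.31.

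Whether the 2 retinoids differed was tested directly. Am80 against ATRA called 0 members by limma, where 0.239% of all genes were called; 2 members (KAT2A and TADA1) had an unadjusted p under 0.05, and edgeR and DESeq2 also called 0. The difference was -0.18 for KAT2A (95% confidence interval -0.35 to -0.01, adjusted p = 0.32) and 0.20 for TADA1 (0.03 to 0.38, adjusted p = 0.283). In the presence of the inhibitors 0 members were called, where 0% of all genes were; TADA3 (0.19, interval 0.02 to 0.37) and TAF6L (0.26, interval 0.03 to 0.49) had an unadjusted p under 0.05. For KAT2A the difference between the combinations was 0.00 with an interval of -0.17 to 0.17. The interaction of retinoid and inhibitors was called for 0 members and 0% of all genes, also with edgeR and DESeq2, and TADA1 alone had an unadjusted p under 0.05 (-0.36, interval -0.61 to -0.11, adjusted p = 0.226). Calls that passed with one retinoid only are thus not shown to differ between the retinoids.

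The genes of related complexes were taken from fixed lists. Their counts of called genes stand beside 24.9% of all genes called higher and 24.4% lower on adding the inhibitors to ATRA, and 19.9% and 19.5% on adding them to Am80. Of 9 other SAGA subunits, 2 rose and 1 fell on adding the inhibitors to ATRA, and 2 rose and 1 fell with Am80. With GC content removed the counts were 1 and 1 beside ATRA, where TAF9B was at -0.03, and 3 and 2 beside Am80, and with total reads as the scale they were 1 higher and 2 lower in each. SUPT20H, a scaffold of SAGA, rose by 0.63 ± 0.07 (adjusted p = 5.25e-07) and 0.55 ± 0.07 (adjusted p = 3.45e-06), from 779 to 792 normalized counts with ATRA to 1177 to 1267 with ATRA and inhibitors. TAF10, a histone-fold subunit shared with TFIID, fell by -0.40 and -0.54. Of 9 genes of the ubiquitin protease module, 2 rose and 1 fell with either retinoid, and ATXN7 (0.44 and 0.51), which anchors the module, and ATXN7L3 (0.31 and 0.56), which activates the protease USP22, were the ones that rose. Beside ATRA this list had 2 higher and 3 lower with GC content removed, and 1 higher and 3 lower with total reads as the scale.

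Of 8 other ATAC subunits, 5 rose and 3 fell on adding the inhibitors to ATRA, and 2 fell on adding them to Am80. The counts beside ATRA were 1 higher and 2 lower with GC content removed. KAT14, the other acetyltransferase of ATAC, had 661 to 694 normalized counts in untreated cells and 658 to 717 with a retinoid alone, and it had 401 to 431 with ATRA and inhibitors and 324 to 383 with Am80 and inhibitors. The libraries with and without the inhibitors did not overlap, and the changes were -0.69 ± 0.08 (adjusted p = 4.66e-07) and -0.93 ± 0.08 (adjusted p = 8.55e-09), both larger than any change of the 10 members. YEATS2, a reader of acylated histones, fell by -0.31 and -0.36. With GC content removed KAT14 was at -0.76 and -0.94, while ZZZ3, one of the 5 that rose beside ATRA, was at -0.03. Of 11 other TFIID subunits, 4 rose and 2 fell beside ATRA and 3 rose and 1 fell beside Am80, with TAF13, one of those that rose beside ATRA, at -0.09 once GC content was removed. The balance turned with total reads as the scale, where 2 were called higher and 3 lower in the ATRA comparison, and in that with Am80 there was 1 higher against 5 lower. TAF3 (0.56 and 0.47), which binds methylated histone H3, and TAF2 (0.45 and 0.31) were among those that rose.

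Of 8 acetyltransferases of other families, 6 rose beside ATRA and 5 beside Am80, with list medians of 0.33 and 0.31 beside medians of -0.02 and -0.01 over all genes, with 4 and 2 called higher and 1 lower in each when libraries were scaled to total reads, and with HAT1, one of the 6, at -0.03 when GC content was removed. CREBBP and its paralog EP300, coactivators of many transcription factors, rose by 0.63 and 0.55 beside ATRA and by 0.86 and 0.65 beside Am80. KAT6B and KAT7, of the MYST family, rose by 0.49 and 0.36 beside ATRA and by 0.42 and 0.31 beside Am80. KAT6B was also called higher with each retinoid alone, by 0.69 in both. KDM1A, the target of GSK-LSD1, was called lower in all 6 comparisons, with 2543 to 2737 normalized counts in untreated cells, 2193 to 2330 with a retinoid and 1868 to 2052 with the inhibitors. Its change was -0.21 and -0.18 with the retinoids and -0.21 and -0.24 on adding the inhibitors.

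**Figure D5:**
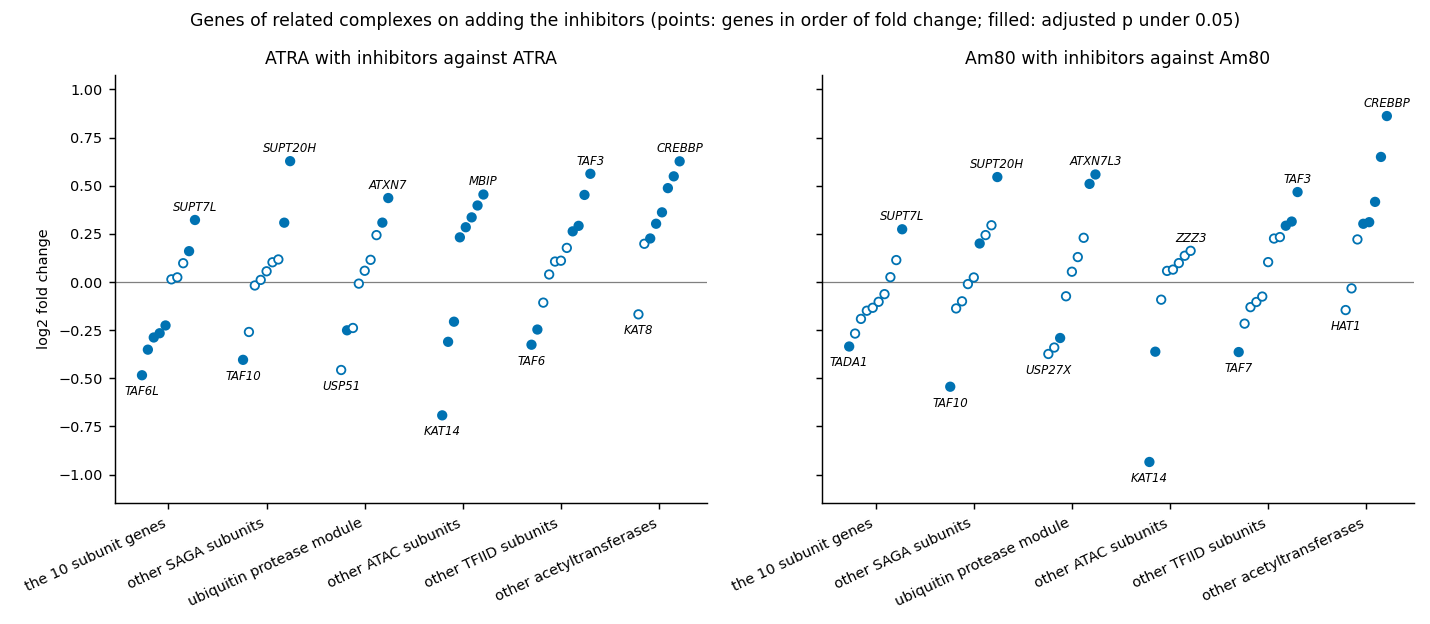
Log2 fold change on adding GSK-LSD1 and MB3 to ATRA (left) or Am80 (right) for the 10 subunit genes and 5 lists of related genes; each point is a gene, genes of a list are in order of fold change, the extreme genes are named, and filled points have an adjusted p under 0.05 by limma. KAT14 lies lowest in both panels, at -0.69 and -0.93, and CREBBP lies at 0.63 and 0.86.

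Over the 16 libraries the genes whose pattern was most like that of KAT2A were ERCC2 (Pearson's r 0.966), TONSL (0.964), MAMDC4 (0.964), ZDHHC8 (0.958) and MYBBP1A (0.955). Of the members, SGF29 was the nearest to KAT2A (r = 0.84), followed by TADA3 (0.69) and TAF6L (0.68), while KAT2B stood at 0.20 and SUPT7L at -0.74. The genes most like KAT2B were NIN (0.874), TCF4 (0.865), TUBGCP4 (0.859), CNTRL (0.858) and PTPRC (0.857). These values describe libraries that share their treatment and their GC slope. Ranked by Spearman's rho, 1 of the 5 genes nearest to KAT2A and 2 of the 5 nearest to KAT2B were the same, and ranked over the 5 group means none was.

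The promoters of the members were read from RefSeq (GRCh38.p14), as 250 bases before to 50 after each start, with 12 windows for the 10 genes because TADA3 and TADA2A have 2 starts each. Letters of known elements were searched on both strands and compared with 35116 promoters of all genes. The letters AGGTCA, which retinoic acid receptors can bind, were found in 1 of the 12 windows (SUPT7L) and in 13.8% of all promoters, and their direct repeat with a spacer of 5 bases (the DR5 element) in 0 of the 12 and in 0.0057% of all. The E-box CACGTG was found for TADA1, TAF5L and TAF6L, and in 7.26% of all promoters. The GC box GGGCGG was found in 8 of the 12 windows and in 45% of all promoters. A match describes letters and not a binding site.

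The stretches before the start are shown for the 3 members that were called lower with a retinoid alone, 5′ to 3′ on the strand of the gene and limited to bases outside annotated exons, with matches to the E-box and the GC box in capitals. They lie on the minus strand at chr17:42121368-42121430 for KAT2A (63 bases, 68.3% GC), chr1:229626123-229626233 for TAF5L (111 bases, 81.1% GC) and chr1:166876328-166876514 for TADA1 (187 bases, 65.8% GC).
KAT2A: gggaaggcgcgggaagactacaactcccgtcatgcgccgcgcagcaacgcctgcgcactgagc
TAF5L: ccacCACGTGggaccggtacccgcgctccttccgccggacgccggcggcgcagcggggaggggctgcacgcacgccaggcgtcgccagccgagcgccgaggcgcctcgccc
TADA1: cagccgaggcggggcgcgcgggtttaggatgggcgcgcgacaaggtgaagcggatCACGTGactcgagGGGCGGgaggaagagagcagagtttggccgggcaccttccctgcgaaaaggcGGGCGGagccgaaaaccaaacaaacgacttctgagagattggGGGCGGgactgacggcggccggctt
The KAT2A stretch held none of the letters searched, the TAF5L stretch held 1 E-box, and the TADA1 stretch held 1 E-box and 3 GC boxes. Starts of other genes lay close by on the opposite strand. Those of ARPC4 and TADA3 were 22 bp apart, those of HSPB9 and KAT2A 64 bp, those of ACACA and TADA2A 68 bp, those of URB2 and TAF5L 112 bp, and those of SLC4A1AP and SUPT7L 143 bp.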

How the data were processed

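OCI-AML3 RNA-seq libraries (4 untreated, 3 for each of 4 treatments) were analysed. The authors processed the reads on Galaxy; per the labels, FastQC, cutadapt, STAR, featureCounts and DESeq2 were used, with versions, genome build, annotation and strand setting not given in the sources used here. The signal values deposited by the authors are counts divided by a DESeq2 size factor, and 100% of values were whole reads within 0.01 reads once multiplied by that factor. The labels and the study's methods name different library kits.

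The test used log2(normalized count + 1) of genes averaging 10 or more. Group means were fitted over all 16 libraries together with limma 3.58.1 (R 4.3.3, mean-variance trend), with Benjamini-Hochberg adjustment within each comparison over 14643 genes. All gene symbols were matched by identifier; positions, exon lengths and GC content came from GENCODE 29 (GRCh38) and promoters from RefSeq. Alternatives were pseudocounts of 0.5 and 5, no filter, an average of 50 or more, quantile normalization, scaling to total reads, a GC spline (5 degrees of freedom), a fit of only the groups compared, a replicate block, each library left out, an adjusted p under 0.01, and edgeR 4.0.16 and DESeq2 1.42.0 on the recovered reads. Intervals and depth (11963898 to 33789718 reads) are limited by counting as well as by replicate spread. Python 3.11.15, pandas 2.3.3 and matplotlib 3.10.9 were used for descriptions and plots.

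The members, the gene lists and the tests were chosen with earlier results of these data known. All members were named, the other lists by counts and by up to 4 genes of smallest adjusted p per comparison, KDM1A always, and 5 genes nearest to KAT2A and to KAT2B; ZZZ3, TAF13 and HAT1 were named after their values were seen. Replicate pairs within a group differed by more than counting noise (chi-square per degree of freedom 2.76 to 25.9 over 18 pairs). The fits were tested on simulated data. One gene of the list of markers of other cell types is not reported here.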

Additional observations from a re-analysis of the deposited data

How the results depend on the processing

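The counts of called members depended on the setting as follows, the counts of the report being 2 (ATRA) and 2 (Am80) against untreated cells, then 6 and 6 when the combinations were set against untreated cells, and 7 and 2 when set against their retinoid. Without a filter on low values they were 1, 1 and 4 for ATRA, Am80 and the ATRA combination against ATRA. Scaling to total reads gave 4 for Am80 against untreated cells and 5 for the Am80 combination against Am80; it moved the median of all genes in the combinations to between -0.13 and -0.19, lowered the share of calls that were higher from 50.1% to 51.3% to between 29.3% and 35.0%, and called 9 members lower in each combination against untreated cells and 0 higher by limma. For Am80 against untreated cells that share was 39.0% against 53.5%. A GC spline gave 2 for the ATRA combination against ATRA, where KAT2A was at 0.0253, TADA1 at -0.3103 and TAF5L at -0.0806, each with the opposite sign to the report. edgeR gave 4 for the Am80 combination against Am80. A fit of only the groups compared gave 1 for Am80 against untreated cells and 1 for the direct comparison of the combinations, where the report has 0. A stricter adjusted p of 0.01 gave 1, 1 and 3 for ATRA, Am80 and the ATRA combination against ATRA, and a fold limit of 1.5 gave 0 in each of the 6 with size factors, though KAT2A was past it with quantile normalization (-0.59 and -0.61 in the combinations against untreated cells), and KAT2A, SGF29 and TAF6L with total reads. Leaving out 1 library at a time gave 1 to 3 (ATRA), 1 to 3 (Am80), 5 to 8 and 4 to 7 (combinations against untreated cells), 4 to 7 (ATRA combination against ATRA) and 2 to 5 (Am80 combination against Am80, with 5 without AM80 replicate 2), and 0 in the direct comparisons and the interaction. Levels per kilobase and the nearest genes also moved with the transcript length and the measure used. The libraries were not treated as paired by replicate number in the main fit. Correlations of their deviations ran from -0.11 to 0.19 in 30 same-numbered pairs, with 4 over 0.1. In 72 pairs of other numbers they ran from -0.23 to 0.23, with 11 over 0.1. Deviations from the means of 3 or 4 libraries cannot exclude pairing. With a replicate block the count for ATRA against untreated cells was 1, and the other counts stayed within 1.5 times those of the report. SGF29, the member with the fewest reads (140 to 333 in a library), had the largest standard error of the members in all 9 comparisons, which limits the changes that could be called for it.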
